A study of Mus musculus with 9 samples.

Results

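Transcript levels of 8 genes of the primitive endoderm were examined in embryonic stem cells (ESCs) with and without mutations of *Rbbp4*. They are the transcription factor genes *Gata4*, *Gata6*, and *Sox7*, the receptor gene *Pdgfra*, and the endocytic genes *Dab2*, *Cubn*, *Amn*, and *Lrp2*. These genes were taken by name and make up 8 of the 25239 gene symbols counted in each library. All 8 had enough reads to be among the 14125 genes tested.

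The RNA-seq libraries came from E14 cells, a mouse ESC line whose strain is given as 12910la, grown in serum with leukemia inhibitory factor. Control cells carried normal *Rbbp4* (*Rbbp4*+/+). *Rbbp4Ins/Ins* cells carried a short in-frame insertion on both alleles, and *Rbbp4Ins/Del* cells carried that insertion on 1 allele and a short in-frame deletion on the other, so no line lacked the gene. *Rbbp4* encodes a histone-binding protein shared by several chromatin complexes, among them PRC2 and histone deacetylase complexes. Each mutant line is a single CRISPR-Cas9 clone, so its genotype and the history of its clone cannot be told apart, and both mutants were compared with the same 3 control libraries. There were 3 libraries per line and 9 in all. The labels do not say whether libraries of a line came from separate cultures, so p-values measure only the spread between these libraries.

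The primitive endoderm is the layer that forms beside the pluripotent epiblast in the early mouse embryo and gives rise to the visceral and parietal endoderm of the yolk sacs. FGF4 from epiblast cells acts through FGF receptors to favor it, GATA6 sets up its program against NANOG, and SOX17, GATA4, and SOX7 follow. PDGFRA is an early surface receptor of these cells. The visceral endoderm later takes up proteins with the large receptors LRP2 (megalin) and cubilin, the product of *Cubn*. Amnionless, the product of *Amn*, carries cubilin to the cell surface, and DAB2 links the receptors to clathrin. ESCs resemble the epiblast, and their cultures can hold a few cells that express primitive endoderm genes. In bulk RNA, a lower level in a few cells and fewer such cells cannot be told apart.

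Counted reads per library ranged from 15838064 to 21366868. Values below are normalized counts, that is, reads scaled to the mean effective library size after TMM normalization, so for most libraries 1 normalized count is close to 1 read. The tests are the quasi-likelihood test of edgeR over all 14125 genes with Benjamini-Hochberg adjustment, and a gene was called higher or lower at an adjusted p of at most 0.01. *Rbbp4* itself averaged 10004.7 ± 99.1 (SD, n = 3) normalized counts in control, 5604.1 ± 152.6 in *Rbbp4Ins/Ins*, and 10358.6 ± 237.6 in *Rbbp4Ins/Del* ESCs. The count of its reads does not check the edits, which leave the gene in place. All 10 embryonic stem cell markers examined were detected in every line, with a summed level of 111223.7 to 115297.4 in control, 124196.7 to 126507.5 in *Rbbp4Ins/Ins*, and 123844.0 to 126308.5 in *Rbbp4Ins/Del* libraries. These markers moved both ways, with 3 lower and 6 higher in *Rbbp4Ins/Ins* and 2 lower and 5 higher in *Rbbp4Ins/Del*. Among all tested genes, 29.4% were lower and 29.0% higher in *Rbbp4Ins/Ins*, and 31.9% and 30.6% in *Rbbp4Ins/Del*. *Lin28a*, the gene of an RNA-binding protein of pluripotent cells, fell in both, with log2 fold changes of -1.43 and -1.55 (SE 0.03 each, adjusted p = 1.64e-32 and 7.98e-34).

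The 8 genes did not change as a block. In *Rbbp4Ins/Ins* ESCs, *Gata4*, *Dab2*, and *Lrp2* fell and *Sox7* and *Cubn* rose, which makes 3 lower, 2 higher, and 3 that did not pass the test. Over all tested genes, 29.4% were lower and 29.0% were higher in this comparison. In *Rbbp4Ins/Del* ESCs the same 3 genes were lower, *Sox7*, *Cubn*, *Gata6*, and *Pdgfra* were higher, and *Amn* did not pass, against 31.9% lower and 30.6% higher over all tested genes. The share of the 8 genes called in either direction, 5 in *Rbbp4Ins/Ins* and 7 in *Rbbp4Ins/Del*, thus stood against a background of 58.4% and 62.5%. The 3 control and 3 mutant libraries did not overlap for 5 genes in *Rbbp4Ins/Ins* (69.1% of all tested genes) and for 7 genes in *Rbbp4Ins/Del* (72.8% of all tested genes). Past a 2-fold change with that adjusted p were 4 of the 8 genes in *Rbbp4Ins/Ins* (16.0% of all tested genes) and 5 in *Rbbp4Ins/Del* (18.6% of all tested genes). The median log2 fold change of the 8 genes was 0.13 and 0.71, and that of all tested genes was 0.00377 and -0.0107.

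**Figure D1:**
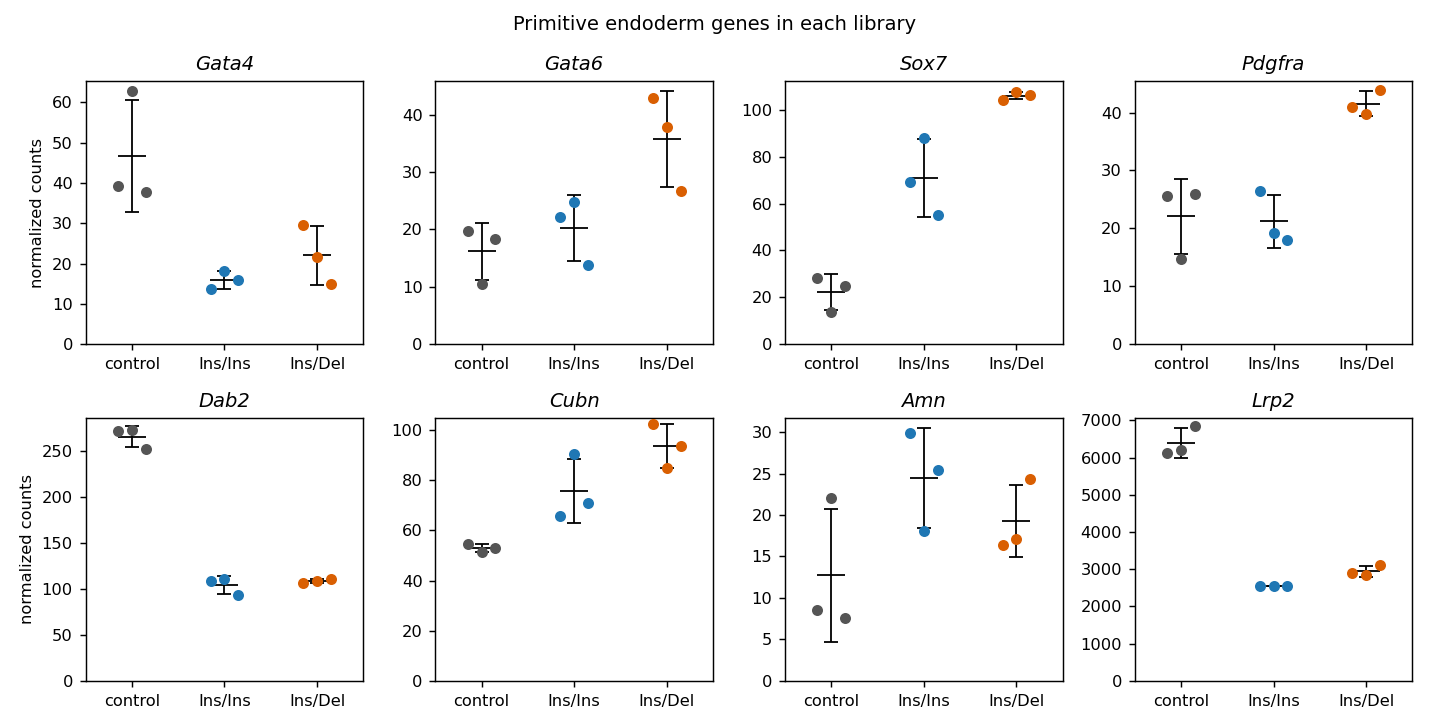
Normalized counts of the 8 primitive endoderm genes in each library of control, Rbbp4Ins/Ins, and Rbbp4Ins/Del ESCs. Points are libraries and the bars give the mean and SD of 3 libraries, with each vertical axis starting at 0. Gata4, Dab2, and Lrp2 were lower in all 6 mutant libraries than in any control library, and Sox7 and Cubn were higher.

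The sequences before the starts of *Lrp2*, *Dab2*, and *Cubn* are shown because the first 2 genes fell together in both mutants while *Cubn*, whose product works at the same membrane, rose. Each is the 250 bases before a RefSeq transcript start in GRCm38.p6, written 5′ to 3′ on the strand of the gene. Capitals mark a match to the GATA words AGATAA or TGATAA, searched on both strands. RefSeq windows were found for 5 of the 8 genes, with 2 starts for *Dab2*, and none for *Gata4*, *Gata6*, or *Sox7*. The window of *Lrp2* lies at chr2:69586030-69586279 (minus strand), that of *Dab2* at chr15:6299539-6299788 and, for its second start, at chr15:6386498-6386747 (plus strand), and that of *Cubn* at chr2:13491877-13492126 (minus strand).
Lrp2: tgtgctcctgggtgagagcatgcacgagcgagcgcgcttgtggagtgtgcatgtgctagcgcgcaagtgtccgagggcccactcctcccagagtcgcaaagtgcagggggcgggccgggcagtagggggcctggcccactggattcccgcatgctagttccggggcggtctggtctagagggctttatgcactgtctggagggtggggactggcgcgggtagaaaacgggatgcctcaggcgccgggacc
Dab2, first start: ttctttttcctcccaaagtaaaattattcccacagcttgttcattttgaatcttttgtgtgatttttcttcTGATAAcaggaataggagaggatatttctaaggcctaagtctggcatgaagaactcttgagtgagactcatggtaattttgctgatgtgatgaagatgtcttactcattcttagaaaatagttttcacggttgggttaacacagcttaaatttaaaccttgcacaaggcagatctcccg
Dab2, second start: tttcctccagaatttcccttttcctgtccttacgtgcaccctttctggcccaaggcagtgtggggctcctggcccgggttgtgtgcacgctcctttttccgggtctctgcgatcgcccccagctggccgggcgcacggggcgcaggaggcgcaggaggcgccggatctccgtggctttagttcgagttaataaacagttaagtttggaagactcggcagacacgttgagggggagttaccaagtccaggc
Cubn: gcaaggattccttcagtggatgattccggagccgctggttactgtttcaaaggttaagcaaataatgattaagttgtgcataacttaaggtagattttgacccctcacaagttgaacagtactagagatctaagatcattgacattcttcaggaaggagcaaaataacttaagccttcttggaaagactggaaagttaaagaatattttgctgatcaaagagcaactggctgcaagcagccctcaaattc

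The first *Dab2* window held 1 GATA word, TGATAA at position -179 from the start, and the other 5 windows, those of *Pdgfra* and *Amn* included, held none. Of 32851 promoter windows of the same length, 16.6% held such a word. None of the 6 windows held the SOX words ACAAAG or ACAATG on either strand, and 25.2% of all windows did. Of the genes that fell, *Gata4* had no window. The window of *Lrp2* was unlike that of the first *Dab2* start in base composition and nearer to that of the second. The G and C content was 66.4% for *Lrp2*, 36.8% for the first *Dab2* start, and 60.0% for the second. *Cubn* had 39.6%, *Pdgfra* 54.4%, and *Amn* 61.2%, and the median of all windows was 52.4%. A match is a description of letters and no evidence of binding.

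GATA4 is a zinc-finger transcription factor that drives the endoderm program. *Gata4* had normalized counts of 39.33, 62.85, and 37.89 in control, 13.69, 18.05, and 15.86 in *Rbbp4Ins/Ins*, and 29.65, 21.66, and 15.04 in *Rbbp4Ins/Del*. All 6 mutant libraries were below all 3 of control, while the 2 mutants overlapped. The level fell, with log2 fold changes of -1.56 in *Rbbp4Ins/Ins* (SE 0.27, adjusted p = 4.97e-06) and -1.05 in *Rbbp4Ins/Del* ESCs (SE 0.26, adjusted p = 4.09e-04). These counts are small, from 35 to 60 reads in control and from 13 to 29 in the mutants. Control replicate 2 was the highest, and without it the *Rbbp4Ins/Del* value was -0.78 with an adjusted p of 0.0144, above the limit.

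*Gata6* encodes the related factor that acts first in this lineage, and its mean moved the other way in *Rbbp4Ins/Del* ESCs. Its normalized counts were 19.66, 10.48, and 18.41 in control, 22.24, 24.83, and 13.74 in *Rbbp4Ins/Ins*, and 42.94, 37.9, and 26.61 in *Rbbp4Ins/Del* libraries. The *Rbbp4Ins/Del* libraries lay above all others, whereas *Rbbp4Ins/Ins* overlapped with control. *Gata6* rose by 1.14 on the log2 scale in *Rbbp4Ins/Del* (SE 0.28, adjusted p = 5.67e-04). In *Rbbp4Ins/Ins* the log2 fold change was 0.31 (SE 0.32, adjusted p = 0.397), with 2 SE on either side reaching from -0.33 to 0.95. The 2 mutants differed by 0.83 (SE 0.27), which missed the limit with an adjusted p of 0.0285.

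*Sox7* encodes an HMG-box factor that appears late in the primitive endoderm and also marks early blood and vessel cells. It showed the largest change of the 8 genes. Its libraries held 28.21, 13.62, and 24.9 normalized counts in control, 69.28, 88.02, and 54.97 in *Rbbp4Ins/Ins*, and 104.3, 107.4, and 106.4 in *Rbbp4Ins/Del* ESCs. The 3 lines did not overlap and stood in that order. *Sox7* was 3.1-fold higher in *Rbbp4Ins/Ins* (log2 fold change 1.63, SE 0.22, adjusted p = 2.39e-08) and 4.67-fold higher in *Rbbp4Ins/Del* (2.22, SE 0.2, adjusted p = 1.60e-12). Between the mutants it differed by 0.59 (SE 0.16, adjusted p = 0.00754). That last call was lost in 6 of 16 alternative analyses. Its adjusted p was 0.0326 in DESeq2, 0.069 without *Rbbp4Ins/Ins* replicate 3, where the difference was 0.45, and 0.0219 to 0.0327 without *Rbbp4Ins/Ins* replicate 1 or any 1 of the *Rbbp4Ins/Del* libraries.

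*Pdgfra* encodes the alpha receptor for platelet-derived growth factors. Its normalized counts were 25.65, 14.67, and 25.98 in control, 26.52, 19.18, and 17.97 in *Rbbp4Ins/Ins*, and 40.89, 39.7, and 43.97 in *Rbbp4Ins/Del* libraries. Only the *Rbbp4Ins/Del* libraries stood apart, above all others. The receptor transcript rose by 0.89 on the log2 scale in *Rbbp4Ins/Del* against control (SE 0.25, adjusted p = 0.00159), and without control replicate 2 by 0.69 with an adjusted p of 0.0179. In *Rbbp4Ins/Ins* it was at -0.04 (SE 0.28, adjusted p = 0.896), an interval of 2 SE from -0.6 to 0.51. The direct difference between the mutants was 0.93 (SE 0.25, adjusted p = 0.00619), which was also lost in 6 of 16 alternatives. Its adjusted p was 0.0233 in DESeq2 and 0.0178 to 0.0351 without *Rbbp4Ins/Ins* replicate 2 or 3 or any 1 of the *Rbbp4Ins/Del* libraries.

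Among the endocytic genes, *Lrp2* was by far the most abundant. Megalin, its product, is a giant member of the LDL receptor family. The normalized counts were 6131.5, 6204.4, and 6857.6 in control. The *Rbbp4Ins/Ins* libraries held 2553.2, 2545.8, and 2554.0, and those of *Rbbp4Ins/Del* 2891.0, 2841.3, and 3120.5. All 3 lines were separate, with *Rbbp4Ins/Ins* the lowest. *Lrp2* fell, with log2 fold changes of -1.33 in *Rbbp4Ins/Ins* (SE 0.037, adjusted p = 2.61e-28) and -1.12 in *Rbbp4Ins/Del* ESCs (SE 0.037, adjusted p = 3.78e-26). The mutants differed from each other by 0.21 (SE 0.039, adjusted p = 1.52e-04). With 2256 to 7172 reads per library, its standard errors were the smallest of the 8 genes.

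*Dab2*, which encodes the clathrin adaptor of megalin, also fell in both mutants. It was counted at 271.9, 272.4, and 252.3 in control, 108.6, 110.6, and 93.03 in *Rbbp4Ins/Ins*, and 106.3, 108.3, and 111.1 normalized counts in *Rbbp4Ins/Del* libraries. The mutants overlapped with each other and lay well below control. The log2 fold changes were -1.35 (SE 0.1, adjusted p = 1.36e-14) and -1.29 (SE 0.1, adjusted p = 3.43e-14). Between the mutants the difference was 0.06 (SE 0.12, adjusted p = 0.8), with 2 SE reaching from -0.18 to 0.3.

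Cubilin is a peripheral membrane protein that needs amnionless and works beside megalin. *Cubn* was counted at 54.72, 51.33, and 53.05 in control, 65.86, 90.27, and 70.83 in *Rbbp4Ins/Ins*, and 102.2, 84.82, and 93.72 normalized counts in *Rbbp4Ins/Del* libraries. Each mutant library was above each control library. *Cubn* rose by 0.81 on the log2 scale in *Rbbp4Ins/Del* (SE 0.16, adjusted p = 2.21e-05). In *Rbbp4Ins/Ins* it rose by 0.49 (SE 0.16, adjusted p = 0.00826), a call lost in 9 of 16 alternatives. Its adjusted p was 0.0267 in DESeq2, 0.0753 without *Rbbp4Ins/Ins* replicate 2, where the rise was 0.36, and 0.011 to 0.0218 without *Rbbp4Ins/Ins* replicate 3 or any 1 of the control libraries.

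*Amn* was the least counted of the 8 genes in control, with 7 to 21 reads. Its normalized counts were 8.549, 22.0, and 7.579 in control, 29.94, 18.05, and 25.37 in *Rbbp4Ins/Ins*, and 16.36, 17.14, and 24.3 in *Rbbp4Ins/Del* libraries. Both mutants overlapped with control through control replicate 2. The log2 fold changes were 0.99 (SE 0.34, adjusted p = 0.0107) and 0.6 (SE 0.36, adjusted p = 0.135), so neither passed. Without that library they were 1.61 (adjusted p = 5.34e-04) and 1.23 (adjusted p = 0.00939), and both passed. The *Rbbp4Ins/Ins* value also passed without *Rbbp4Ins/Ins* replicate 2 (adjusted p = 0.0064) and with no filter on low counts (adjusted p = 0.00504).

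**Figure D2:**
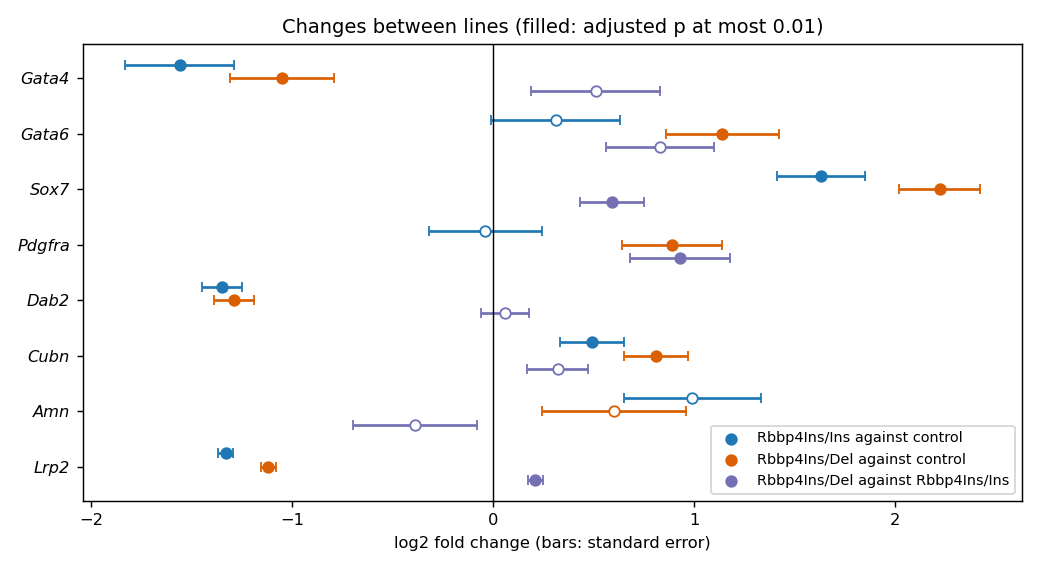
Log2 fold changes of the 8 genes in the 3 comparisons of lines, with bars for 1 SE, and filled points where the adjusted p was at most 0.01. Gata4, Dab2, and Lrp2 lie between -1.56 and -1.05 in both mutants against control, and Sox7 lies at 1.63 and 2.22. The direct comparison of the mutants runs from -0.39 for Amn to 0.93 for Pdgfra.

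The 2 mutants were compared directly to see where they part. *Sox7*, *Pdgfra*, and *Lrp2* were higher in *Rbbp4Ins/Del* than in *Rbbp4Ins/Ins*, none was lower, and 5 did not pass. Over all tested genes 6.17% were higher and 4.64% lower in this comparison. For 4 of the 8 genes, those 3 and *Gata6*, the mutants did not overlap, against 34.1% of all tested genes. All 8 differences but that of *Amn* were above 0, with a median of 0.41 on the log2 scale, and the median over all tested genes was -0.00355. The difference of *Gata4* was 0.51 (SE 0.32, adjusted p = 0.29), and that of *Cubn* was 0.32 (SE 0.15, adjusted p = 0.138).

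Levels can be set side by side between genes only per length, so normalized counts were divided by the kilobases of exon in GENCODE M21. In control ESCs, *Lrp2* stood at 383.1 ± 23.9 (SD, n = 3) normalized counts per kb, above the median of 92.1 over 13891 tested genes with a length and at their 82.1 percentile. The other 7 genes were below that median. *Dab2* came next at 36.2 ± 1.56, at the 32.4 percentile, and *Gata4* at 12.0 ± 3.59. *Amn* followed at 6.9 ± 4.37, *Sox7* at 6.74 ± 2.32, *Cubn* at 3.55 ± 0.113, *Gata6* at 2.49 ± 0.765, and *Pdgfra* at 2.2 ± 0.642, the last at the 3.74 percentile. Within this order *Gata4* overlapped with *Amn*, *Amn* with *Sox7*, and *Gata6* with *Pdgfra*.

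The order was different in the mutants. *Lrp2* remained first, at 152.7 ± 0.274 normalized counts per kb in *Rbbp4Ins/Ins* and 176.7 ± 8.92 in *Rbbp4Ins/Del* ESCs. *Sox7* took the next place in both, at 21.4 ± 5.02 and 32.1 ± 0.483. *Dab2* came after it at 14.2 ± 1.31 and 14.8 ± 0.326, and *Amn* at 13.3 ± 3.25 and 10.5 ± 2.37. *Gata4* was then below *Cubn* in mean, at 4.06 ± 0.56 and 5.66 ± 1.87 against 5.07 ± 0.864 and 6.27 ± 0.583, but the 2 genes overlapped. *Gata6* averaged 3.11 ± 0.891 and 5.5 ± 1.28, and *Pdgfra* 2.12 ± 0.461 and 4.14 ± 0.22. In both mutants *Gata4* overlapped with *Gata6* and *Gata6* with *Pdgfra*, and *Dab2* overlapped with *Amn* in *Rbbp4Ins/Ins*.

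**Figure D3:**
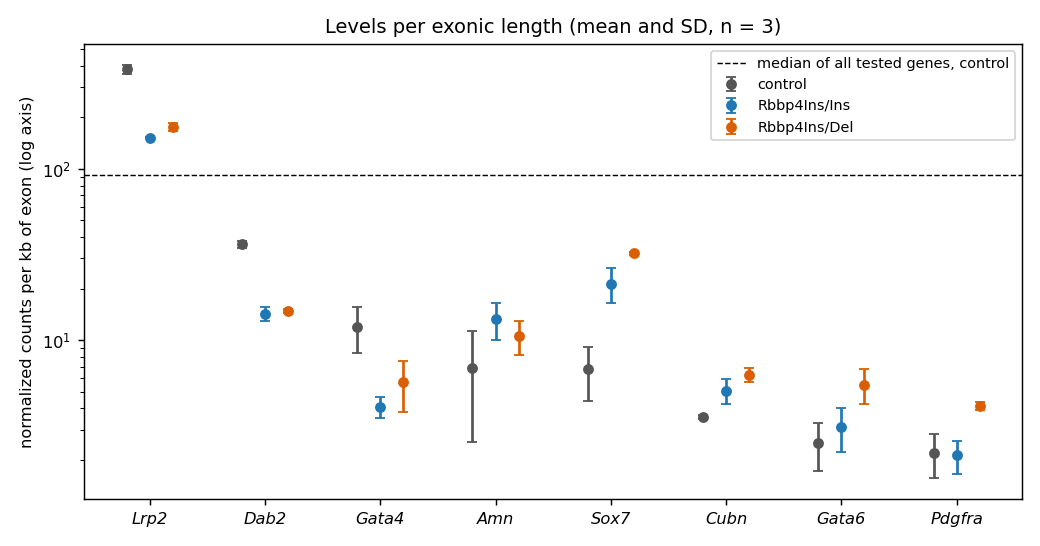
Normalized counts per kilobase of exon on a log axis, as mean and SD of 3 libraries, for the 8 genes in the order of their control level. The dashed line is the median of the tested genes in control, 92.1. Lrp2 lies above it in every line and the other 7 genes lie below it.

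*Gata4* and *Sox7* are near each other. In GRCm38, *Gata4* spans chr14:63198922-63271692 on the minus strand and *Sox7* spans chr14:63943673-63950732 on the plus strand, and their starts are 0.672 Mb apart. This stretch of chromosome 14 was already known to be lower in both mutants when the genes were chosen. Of the 14 other tested genes that start within 1 Mb of *Gata4*, 10 (71.4%) were lower and 2 were higher in each mutant, with a median log2 fold change of -0.81 in *Rbbp4Ins/Ins* and -0.8 in *Rbbp4Ins/Del*. Around *Sox7*, 11 of 12 (91.7%) were lower in *Rbbp4Ins/Ins* and 10 of 12 (83.3%) in *Rbbp4Ins/Del*, with 1 higher in each and medians of -0.84 and -0.87. The 2 windows share genes and each holds the other of the pair. *Sox7* thus rose where most of its neighbours fell. The 1 higher gene near it, named after its values were seen, was *Defb30*. It rose more than *Sox7*, by 4.43 in *Rbbp4Ins/Ins* (adjusted p = 1.51e-05) and 5.112 in *Rbbp4Ins/Del* (adjusted p = 1.35e-07).

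*Gata4* fell with its neighbours, whose part in its change was not tested. Its log2 fold change in *Rbbp4Ins/Ins*, 2 SE on either side reaching from -2.11 to -1.01, lay below the median of its neighbours. In *Rbbp4Ins/Del* the interval from -1.56 to -0.54 held it. The *Rbbp4Ins/Ins* interval of *Gata4* held the values, given next, of *Fam167a* and *Tdh* and not those of *Neil2* and *Fdft1*. The interval of *Neil2* itself, from -1.15 to -0.58 in that line, overlapped with that of *Gata4*. In *Rbbp4Ins/Del* the *Gata4* interval held the values of *Neil2*, *Fam167a*, and *Tdh*, and that of *Fdft1* stood at its upper end. The nearest tested genes before *Gata4* were *Neil2*, 77.8 kb away, and *Fdft1*, 92.1 kb away, and after it *Fam167a* at 164.7 kb and *Tdh* at 237.4 kb, each distance being from start to start. *Neil2*, which encodes a DNA repair glycosylase, was at -0.87 and -0.99 in the 2 mutants. *Fdft1*, the gene for squalene synthase, was at -0.46 and -0.54. *Fam167a* was at -1.11 and -1.12. *Tdh*, for the threonine dehydrogenase that mouse ESCs use heavily, was at -1.46 and -1.47, and all 4 passed the test in both mutants.

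For *Sox7*, the nearest tested genes were *Pinx1*, 83.3 kb before it, and *Mtmr9*, 399.7 kb before it. *Pinx1* was at -0.82 and -0.81, and *Mtmr9* at -1.48 and -1.41, in *Rbbp4Ins/Ins* and *Rbbp4Ins/Del*. After *Sox7* came *Msra*, at 512.2 kb, with -0.62 and -0.43. All 3 passed the test in both mutants. The transcript *Mir124a-1hg*, 643.7 kb away, was lower in *Rbbp4Ins/Ins* (-0.39, adjusted p = 0.00908) and stood at 0.01 in *Rbbp4Ins/Del* (adjusted p = 0.944).

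**Figure D4:**
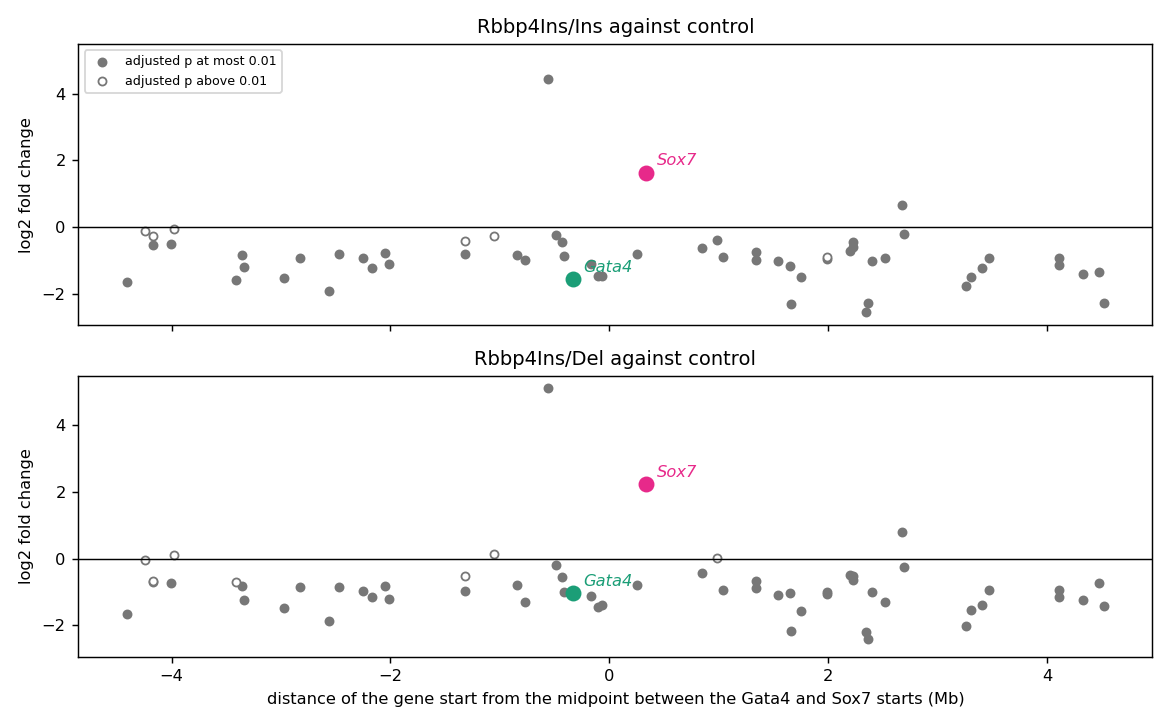
Log2 fold change of each tested gene of this chromosome 14 region, by the distance in Mb of its start from the midpoint between the starts of Gata4 and Sox7, in Rbbp4Ins/Ins (top) and Rbbp4Ins/Del (bottom). Filled points passed an adjusted p of 0.01. Most genes lie below 0, Gata4 at -1.56 and -1.05 lies among them, and Sox7 lies above at 1.63 and 2.22. Defb30 at 4.43 and 5.112 and Ptk2b at 0.673 and 0.809, named after their values were seen, also lie above 0.

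Narrower and wider windows also held mostly lower genes. Within 0.5 Mb, 7 of 8 genes near *Gata4* and 3 of 3 near *Sox7* were lower in both mutants. Within 5 Mb, 51 of 60 and 52 of 60 were lower in *Rbbp4Ins/Ins*, and 50 and 51 of 60 in *Rbbp4Ins/Del*. The other 6 genes lie elsewhere: *Gata6* at chr18:11052064-11085635, *Pdgfra* at chr5:75152292-75198215, *Dab2* at chr15:6299788-6440712, *Cubn* at chr2:13276338-13491813, *Amn* at chr12:111271095-111276426, and *Lrp2* at chr2:69424340-69586065. The median log2 fold change of their neighbours within 1 Mb lay between -0.42 and 0.23, with only 2 tested neighbours for *Dab2*. Near *Cubn*, 5 of 8 were lower and 1 higher in *Rbbp4Ins/Ins*, and 4 and 1 in *Rbbp4Ins/Del*. In the 5 Mb window of *Cubn*, 16 and 15 of 30 were lower and 5 and 8 higher in the 2 mutants. In that of *Dab2*, 17 and 18 of 32 were lower and 7 and 8 higher. Over all tested genes, 29.4% and 31.9% were lower.

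Some exons overlap with those of other annotated genes. The overlap is 4.55% of the exonic bases of *Pdgfra* with the opposite-strand gene *Gm42802*, 2.87% of *Dab2*, 2.46% of *Cubn*, and 1.43% of *Gata6*, also with opposite-strand genes. *Pdgfra* further shares 1.66% with the opposite-strand gene *Gm42803* and 0.3% with *Mir7025* on its own strand. The strand setting of the counting was not given in the sources used here, so reads of these stretches may belong to either gene. *Gata4*, *Sox7*, *Amn*, and *Lrp2* had no such overlap.

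For each of the 8 genes the most similar patterns over the 9 libraries were sought among 11321 other tested genes with a mean of at least 50 normalized counts. Likeness was the Euclidean distance between log2 normalized counts, each centred on its own mean, and a smaller value is closer. *Lrp2* was closest to *Dnmt3b* (distance 0.175), the gene of a de novo DNA methyltransferase, and then to *Cnpy1* (0.212). *Dab2* had the same nearest pair, at 0.252 and 0.261. For *Cubn* these were *Prph* (0.254) and *Mpzl3* (0.255), and for *Pdgfra* they were *Bcl6* (0.411) and *Akr1b8* (0.687). *Sox7* was nearest to *Gm21818* (0.573) and *Chst3* (0.725). The remaining genes, with few reads, had no close match. Their nearest genes were *Rdh10* (0.835) and *Ltbp1* (0.842) for *Gata4*, *Tgm3* (0.948) and *Bicc1* (0.95) for *Gata6*, and *Rps6kl1* (0.932) and *Il18bp* (0.945) for *Amn*.

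Further lists held 70 other genes of this lineage, its signals, and the epiblast, of which 60 could be tested. In *Rbbp4Ins/Ins*, 24 were lower and 23 higher, and in *Rbbp4Ins/Del* 22 were lower and 24 higher. Among all tested genes, 29.4% were lower and 29.0% higher in *Rbbp4Ins/Ins*, and 31.9% and 30.6% in *Rbbp4Ins/Del*. The counts of each list below stand against these same shares. Their median log2 fold changes were 0.0 and 0.04. These further genes thus moved in both directions, as did the 8 genes and the tested genes as a whole.

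Of 10 further endoderm transcription factors 8 could be tested, and 1 was lower and 3 were higher in each mutant. *Hnf4a*, a nuclear receptor of the visceral endoderm, had 3.248 to 5.13 normalized counts in control, 53.03 to 62.06 in *Rbbp4Ins/Ins*, and 64.79 to 72.18 in *Rbbp4Ins/Del* libraries. It rose by 3.68 (SE 0.3, adjusted p = 1.22e-13) and 3.96 (SE 0.29, adjusted p = 3.81e-15), from 3 to 6 reads per control library. *Otx2*, a homeobox factor of the anterior visceral endoderm and of the primed epiblast, fell from 1375.2 ± 93.7 (SD, n = 3) to 428.5 ± 7.59 and 301.2 ± 5.66 normalized counts. *Sox17*, the factor related to *Sox7* that acts before it, averaged 7.459 ± 1.03 in control, 11.2 ± 4.77 in *Rbbp4Ins/Ins* (log2 fold change 0.61, adjusted p = 0.2), and 16.65 ± 4.4 in *Rbbp4Ins/Del* (1.15, adjusted p = 0.00929). *Foxa2*, a further factor of this layer, had too few reads to test, from 1 to 12 per library.

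The PDGF and FGF list had 8 genes lower and 4 higher of 12 in *Rbbp4Ins/Ins*, and 7 lower and 4 higher in *Rbbp4Ins/Del*. *Pdgfa*, a ligand of PDGFRA, rose by 0.34 (SE 0.052, adjusted p = 2.95e-07) and 0.66 (SE 0.05, adjusted p = 1.04e-14). *Pdgfc*, another ligand of that receptor, rose from 339.6 ± 49.5 to 1289.3 ± 69.0 and 1630.5 ± 71.6 normalized counts (SD, n = 3). *Pdgfd* fell from 23.58 ± 5.84 to 4.249 ± 0.874 and 3.077 ± 1.78, and its receptor gene *Pdgfrb* fell from 48.63 ± 5.23 to 19.8 ± 5.25 and 20.48 ± 8.24. *Fgf4* rose by 0.52 and 0.64 on the log2 scale (SE 0.029 each). Of the FGF receptor genes on the list, *Fgfr1* and *Fgfr2* fell in both mutants. *Fgfr1* was at -0.53 and -0.56 (SE 0.037 each), and *Fgfr2* at -0.89 (SE 0.061) and -1.41 (SE 0.065). *Fgfr3*, named after its values were seen, fell in *Rbbp4Ins/Ins* (-1.01, SE 0.28, adjusted p = 0.0019) and stood at -0.27 in *Rbbp4Ins/Del* (SE 0.25, adjusted p = 0.357). *Nanog*, from the epiblast list, rose by 0.41 and 0.43 (SE 0.029 each), and that list had 6 of 8 genes higher and 1 lower in *Rbbp4Ins/Ins* and 4 higher and 0 lower in *Rbbp4Ins/Del*.

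Of 12 endocytic partners, 4 were lower and 5 higher in each mutant, with median log2 fold changes of 0.03 and 0.08. *Lrpap1*, the chaperone of megalin, stood at -0.02 (SE 0.043, adjusted p = 0.759) and 0.02 (SE 0.043, adjusted p = 0.681), so it did not pass where *Lrp2* fell. *Clcn5*, the gene of an endosomal chloride transporter, fell, with log2 fold changes of -1.36 and -1.39 (SE 0.085 each). Among 10 genes of the basement membrane that endoderm lays down, 6 were lower and 3 higher in *Rbbp4Ins/Ins* and 5 were lower and 5 higher in *Rbbp4Ins/Del*. *Nid1* (nidogen) rose from 2493.1 ± 98.6 to 6341.0 ± 213.9 and 7636.5 ± 26.1 normalized counts, and *Serpinh1*, a collagen chaperone, fell from 1505.3 ± 44.1 to 618.0 ± 33.0 and 553.1 ± 25.0 (SD, n = 3).

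Of 18 products of visceral and parietal endoderm 10 could be tested, with 4 lower and 2 higher in *Rbbp4Ins/Ins* and 5 lower and 3 higher in *Rbbp4Ins/Del*. *Apob* (an apolipoprotein) fell, with log2 fold changes of -1.58 and -1.19 (SE 0.2 and 0.19), as did *Fst* (follistatin) with -1.4 and -1.01 (SE 0.19 and 0.18). *Thbd* (thrombomodulin) fell furthest, with -3.47 and -3.44 (SE 0.47 each), and *Plat* (tissue plasminogen activator) had -2.65 and -2.57 (SE 0.3 and 0.29). *Cpn1*, a plasma carboxypeptidase gene, rose by 1.21 and 1.25 (SE 0.14 each). Named after their values were seen, the visceral endoderm products *Afp*, *Ttr*, *Apoa1*, *Apoa4*, and *Apoc2* could not be tested for lack of reads.

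**Figure D5:**
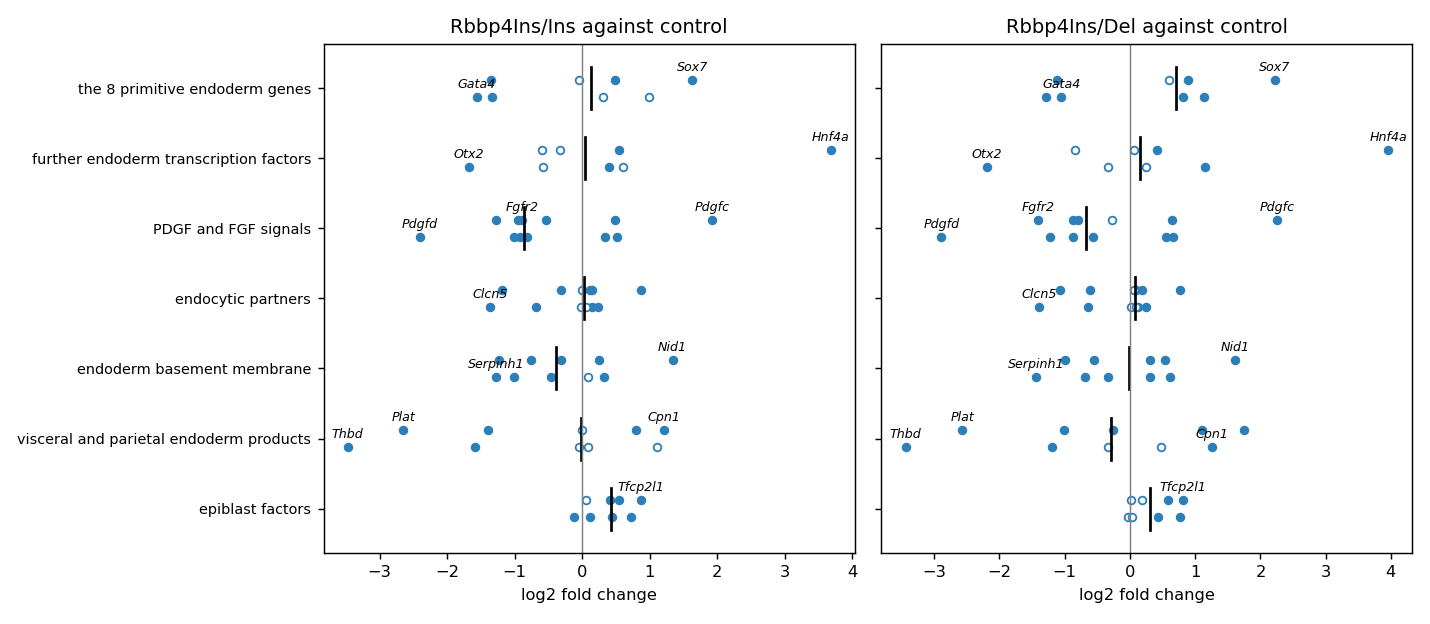
Log2 fold changes of the tested genes of each list in Rbbp4Ins/Ins (left) and Rbbp4Ins/Del (right) against control. Points are genes, filled where the adjusted p was at most 0.01, vertical bars are list medians, and selected genes are labelled. Hnf4a is the highest at 3.68 and 3.96 and Thbd the lowest at -3.47 and -3.44, and each list but the epiblast list spans both sides of 0 widely.

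Summed markers of trophectoderm, feeder fibroblasts, and definitive endoderm did not overlap between control and either mutant, while those of mesoderm did. The part of other cell types in the changes of the 8 genes was not tested. The 8 trophectoderm markers summed to 4850.3 to 5333.9 normalized counts in control, 2439.9 to 2608.8 in *Rbbp4Ins/Ins*, and 1617.5 to 1678.3 in *Rbbp4Ins/Del* libraries. Their 7 tested genes held 5 lower and 1 higher in *Rbbp4Ins/Ins* and 6 lower and 0 higher in *Rbbp4Ins/Del*, with *Krt8*, *Krt18*, and *Cdx2* more than 2-fold lower in both. The largest control means were 2091.1 for *Krt18*, 1503.5 for *Krt8*, and, named after its values were seen, 1259.6 for *Tfap2c*. In *Rbbp4Ins/Ins* and *Rbbp4Ins/Del* the largest mean was that of *Tfap2c*, at 1762.8 and 1086.0. The 10 feeder fibroblast markers summed to 631.2 to 742.7 in control, 278.7 to 301.1 in *Rbbp4Ins/Ins*, and 355.7 to 388.8 in *Rbbp4Ins/Del*. Of these, *Lum* and *Fap* had at most 3 reads in every library, *Col1a1*, *Col1a2*, *Col3a1*, and *Pdgfrb* fell, and *Thy1* rose in both mutants. *Thy1* made up most of the mutant sums, with means of 45.7 in control, 245.7 in *Rbbp4Ins/Ins*, and 311.6 in *Rbbp4Ins/Del*. The 8 mesoderm markers summed to 159.0 to 203.2, 154.3 to 180.5, and 199.3 to 203.6, with *Mesp1* at no more than 3 reads. Of their 6 tested genes, 1 was lower and 1 higher in *Rbbp4Ins/Ins*, and 2 were lower and 2 higher in *Rbbp4Ins/Del*. *T* fell in both mutants, and, named after their values were seen, *Snai1* rose in both (0.59 and 0.89) and *Kdr* rose in *Rbbp4Ins/Del* (1.06). The 7 definitive endoderm markers, *Sox17* and *Foxa2* among them, summed to 233.4 to 251.2, 365.8 to 395.2, and 323.0 to 340.2, and *Cer1* had at most 3 reads in every library. Their 4 tested genes held 1 higher in *Rbbp4Ins/Ins*, 3 higher in *Rbbp4Ins/Del*, and 0 lower in either. Named after its values were seen, *Eomes* made up most of these sums, with means of 192.7, 321.8, and 270.9 in control, *Rbbp4Ins/Ins*, and *Rbbp4Ins/Del*. *Gsc*, named likewise, and *Foxa2* had too few reads to test, and their means were lower in both mutants. They were 9.119, 2.792, and 2.315 for *Gsc* and 7.989, 5.104, and 2.27 for *Foxa2*.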

How the data were processed

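The deposited files hold whole-number read counts per gene symbol. For these counts the authors prepared libraries with a Kapa mRNA HyperPrep kit, sequenced paired-end reads of 50 bp, aligned them to mm10 with STAR 2.7.3, and counted with HTSeq. The HTSeq version, annotation, and strand setting are not given in the sources used here. Samples were grouped by genotype label.

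edgeR 4.0.16 in R 4.3.3 (filterByExpr, TMM, glmQLFit, and glmQLFTest) was fitted to the 9 libraries in 3 groups without a covariate. Benjamini-Hochberg adjustment covered 14125 genes, and SE was obtained from the F statistic (log2 fold change over the root of F). TMM factors lay between 0.993 and 1.02. Positions and exon lengths are from GENCODE M21, and promoters are from RefSeq. Tables were made with Python 3.11.15 and pandas 2.3.3, and the fit was tested on simulated data.

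The 8 genes and the lists were chosen with earlier results of these data known. Named beside them are *Rbbp4*, fixed genes of the further lists, list genes over 2-fold at an adjusted p of at most 0.01 in both mutants, the 2 nearest tested genes on either side of *Gata4* and *Sox7*, and the 2 genes with the most similar pattern. A fixed gene of these lists is not reported here. Alternatives were DESeq2 1.42.0, DESeq2's size factors in edgeR, scaling by total counts, TMM factors without chromosome 14, no filter on low counts, only the groups compared, a replicate block, testing against a 2-fold change, neighbour windows of 0.5 and 5 Mb, each library left out, and an adjusted p limit of 0.05.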

Additional observations from a re-analysis of the deposited data

Results flagged for a closer look

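Of the 8 genes, 3 differed between the mutant lines by the direct test of *Rbbp4Ins/Del* against *Rbbp4Ins/Ins*. In either direction, 10.8% of all tested genes were called in that comparison. *Sox7* was higher in *Rbbp4Ins/Del* by 0.59 on the log2 scale (SE 0.16, edgeR quasi-likelihood test, adjusted p = 0.00754). *Pdgfra* was higher by 0.93 (SE 0.25, adjusted p = 0.00619), and *Lrp2* was higher by 0.21 (SE 0.039, adjusted p = 1.52e-04). In each case all 3 libraries of *Rbbp4Ins/Del* lay above all 3 of *Rbbp4Ins/Ins*. The mutants did not overlap, in either direction, for 34.1% of all tested genes. The calls of *Sox7* and *Pdgfra* were each lost in 6 of 16 alternatives, 5 of which left out 1 library, and that of *Lrp2* in 0 of 16.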

How the results depend on the processing

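Each fold change of the 8 genes was recomputed under 16 alternatives, 9 of which left out a library. Of the 384 values, 352 kept their direction and their side of the limit, 23 lost the call, 4 gained it, and 5 changed sign. The 3 genes lower in *Rbbp4Ins/Ins* remained 3 in every alternative. The 3 lower in *Rbbp4Ins/Del* became 2 without control replicate 2, as *Gata4* lost its call. The number higher in *Rbbp4Ins/Ins*, 2 in the main analysis, was 1 with DESeq2, with scaling by total counts, with only the groups compared, and with the replicate block, and 1 to 2 with a library left out, as *Cubn* lost its call. That number was 3 with no filter on low counts and at an adjusted p limit of 0.05, as *Amn* passed. Without control replicate 2 or *Rbbp4Ins/Ins* replicate 2 it was 2, as *Amn* passed and *Cubn* did not. The number higher in *Rbbp4Ins/Del* than in *Rbbp4Ins/Ins*, 3 in the main analysis, was 1 with DESeq2, where *Lrp2* remained, and 1 to 3 with a library left out. The number past 2-fold in *Rbbp4Ins/Del*, 5 by estimate, was 3 when the test was against a 2-fold change. The value of *Pdgfra* in *Rbbp4Ins/Ins*, -0.04, ranged from -0.25 to 0.09 with a library left out, and that of *Dab2* between the mutants, 0.06, from -0.01 to 0.1. Neither was called under any of these. Of 612 counts over the further lists, 591 stayed within 1.5 times the main count. Libraries with the same replicate number did not deviate together (correlations of -0.0238 to 0.0601), so the numbers do not pair them. The replicate block changed no call of the 8 genes but that of *Cubn* in *Rbbp4Ins/Ins* (0.49, adjusted p = 0.0101).

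Depth limits *Gata4*, *Gata6*, *Sox7*, *Pdgfra*, and *Amn*, which had 7 to 60 reads in each control library. Their SD between replicates was 0.31 to 0.524 on the log2 scale, against 0.0659 for *Lrp2*. Depth also limits *Cubn*, with 49 to 64 reads in each control library and an SD of 0.158. A difference that missed the limit in these genes is not shown to be absent.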
